A study of Mus musculus with 12 samples.

Results

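Tubulins are the building blocks of microtubules. The 10 genes described here are 5 alpha-tubulin genes (Tuba1a, Tuba1b, Tuba1c, Tuba4a and Tuba8) and 5 beta-tubulin genes (Tubb2a, Tubb2b, Tubb4b, Tubb5 and Tubb6), taken by gene symbol from the 40551 Ensembl genes counted in mouse liver. Each symbol matched 1 identifier, and all 10 genes passed the filter on low counts that left 15070 genes for testing. An alpha and a beta subunit join into a heterodimer, heterodimers add to the ends of hollow filaments, and the genes of each family encode closely related variants called isotypes whose mixture differs between tissues. In hepatocytes microtubules carry secretory vesicles, bile canalicular proteins and lipid droplets, and in dividing cells they form the mitotic spindle. Cells also adjust tubulin production to supply: when free heterodimers are in excess, the factor TTC5 recognises the beginning of a nascent tubulin chain on the ribosome and its mRNA is degraded.

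Total RNA was sequenced from whole livers of 4 genotypes, with 3 livers each. WT livers are the controls. Mcl1 KO livers, called Mcl1Δhep in the study, carry floxed Mcl1 alleles and an albumin promoter driven Cre (Alb-Cre), which deletes this anti-apoptotic BCL-2 family gene in hepatocytes and leaves it in the other liver cells. Sting1 KO mice lack the cytosolic DNA signalling adaptor STING in all cells (Sting1-/-), and Mcl1 Sting1 DKO mice carry both changes. The study describes its transcriptome of WT and Mcl1Δhep livers as coming from animals aged 2 months; an age for each library is not given in the sources used here, nor is the sex of single animals, although both sexes were used. The labels do not say which livers were littermates, so the p-values measure the spread between these livers only. In a whole liver, fewer cells of a type and less RNA per cell cannot be told apart.

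The 12 libraries held between 28826367 and 45266387 counts. Mcl1 was lower in every library with the hepatocyte deletion: it read 90.2 to 103.8 CPM (counts scaled to a common total with the TMM library sizes) in WT and 25.0 to 34.0 CPM in Mcl1 KO, and 77.0 to 90.1 CPM in Sting1 KO and 18.1 to 26.0 CPM in Mcl1 Sting1 DKO. Sting1 did not separate the libraries labelled Sting1 KO (1.16 to 2.70 CPM) from WT (2.11 to 2.53 CPM). It was higher in Mcl1 KO (3.668 to 5.997 CPM) than in WT, with a log2 fold change of 0.99 (adjusted p 0.032, edgeR). Each Mcl1 Sting1 DKO liver (1.904 to 2.534 CPM) was below each Mcl1 KO liver, with a log2 fold change of -1.055 (adjusted p 0.13, edgeR). The Mcl1 Sting1 DKO range still overlapped those of WT and Sting1 KO. Gene totals therefore separate these 2 Mcl1-deleted groups but do not show loss of Sting1 relative to WT. Every direction drawn below for the Sting1 label rests on the label as given. Y-linked transcripts were present in WT 2, WT 3 and Mcl1 Sting1 DKO 1 and at or near 0 in the other 9 libraries. All Mcl1 KO and Sting1 KO livers are among these 9. In comparisons with WT, genotype is therefore partly confounded with Y-linked expression and with the sex that it marks. Counts assigned to snRNA, snoRNA and similar short transcripts made up a percentage that ran from 0.192 to 0.421% in WT and from 0.314 to 2.78% in Mcl1 KO. Skeletal muscle transcripts summed to 1718 CPM in Mcl1 KO 3 and to at most 10.1 CPM elsewhere. Hepatocyte markers were abundant throughout, with the 12 listed genes summing to at least 109700 CPM in each library.

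The coding starts of the members are printed because this is the stretch that tubulin autoregulation reads once it is translated. The lines give the first 24 coding bases on the sense strand from GENCODE vM39 on GRCm39, with the first 4 codons in capitals. Tubb6 is named only.
Tuba1a: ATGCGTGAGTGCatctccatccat
Tuba1b: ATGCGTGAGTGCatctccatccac
Tuba1c: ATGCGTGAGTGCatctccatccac
Tuba4a: ATGCGCGAGTGCatttcagtccat
Tuba8: ATGAGGGAATGCatatcggtccat
Tubb2a: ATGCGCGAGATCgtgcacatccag
Tubb2b: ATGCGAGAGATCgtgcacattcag
Tubb4b: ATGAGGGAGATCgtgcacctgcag
Tubb5: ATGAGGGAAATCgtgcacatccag
Tuba1a, Tuba1b and Tuba1c shared the capital bases letter for letter, and Tuba1b and Tuba1c were the same over all 24 bases. The 4 beta genes shown also shared the 6 bases that follow the capitals.

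Over whole coding sequences the members fall into close pairs and distant ones. Identity was 98.3% between Tuba1a and Tuba1b, 97.1% between Tuba1a and Tuba1c and 96.5% between Tubb2a and Tubb2b, whereas Tuba8 was 79.5 to 81.4% identical to the other alpha genes. This matters for the counts, since a read from a stretch that occurs at several loci may be dropped or split. Windows of 100 bases were taken along a single transcript per gene, the one marked as canonical by Ensembl. The share of windows that also occurred at another locus was 49.9% in Tuba1a, 36.5% in Tuba1b and 46.1% in Tuba1c. Among the beta genes it was 25.1% in Tubb2a, 10.2% in Tubb2b and 29.1% in Tubb4b. No such window was found in Tuba4a, Tuba8, Tubb5 or Tubb6.

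The genes lie on 7 chromosomes. On GRCm39, Tuba1b (chr15:98827738-98832493), Tuba1a (chr15:98847714-98851589) and Tuba1c (chr15:98927748-98936266) are neighbours, as are Tubb2a (chr13:34257549-34261998) and Tubb2b (chr13:34307245-34315143). Tuba4a lies at chr1:75189219-75196566, Tuba8 at chr6:121187638-121203818, Tubb4b at chr2:25112170-25114714, Tubb5 at chr17:36144809-36149198 and Tubb6 at chr18:67523585-67536773. Other genes overlap several of them. Bphl runs antisense to Tubb2a, Stk16 to Tuba4a, Flot1 to Tubb5 and Afg3l2 to Tubb6, and the readthrough gene Gm49450 covers Tuba1a and Tuba1b on their own strand. The sources used here do not say whether counting used strand, so the values of these members are uncertain to the extent that reads in shared stretches were dropped or assigned to the partner.

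In WT liver the isotypes differed widely in level. Levels between genes are compared in TPM (counts divided by the length of all annotated exons and scaled to a common total). Tubb4b was the most abundant at 160 ± 19.4 TPM (SD, n = 3), followed by Tuba4a at 119 ± 12.7, Tubb5 at 93.1 ± 16.2, Tuba1c at 58.6 ± 7.54 and Tubb2a at 39.9 ± 18.4 TPM. The lower ranks were Tuba1a at 13.7 ± 4.61, Tuba1b at 11.1 ± 1.82, Tubb6 at 6.57 ± 2.57 and Tuba8 at 2.50 ± 0.577 TPM. Tubb2b was close to absent, with 1 to 9 counts per WT library. The ranges of 3 neighbouring pairs overlapped between livers, namely Tuba1c with Tubb2a, Tuba1a with Tuba1b, and Tuba1b with Tubb6, and the other neighbours in the order did not overlap. A further 6 tubulin genes did not reach the testing filter: Tuba3a and Tubal3 had no count in any library, and Tuba3b, Tubb3, Tubb4a and Tubg2 stayed at or below 28 counts.

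**Figure D1:**
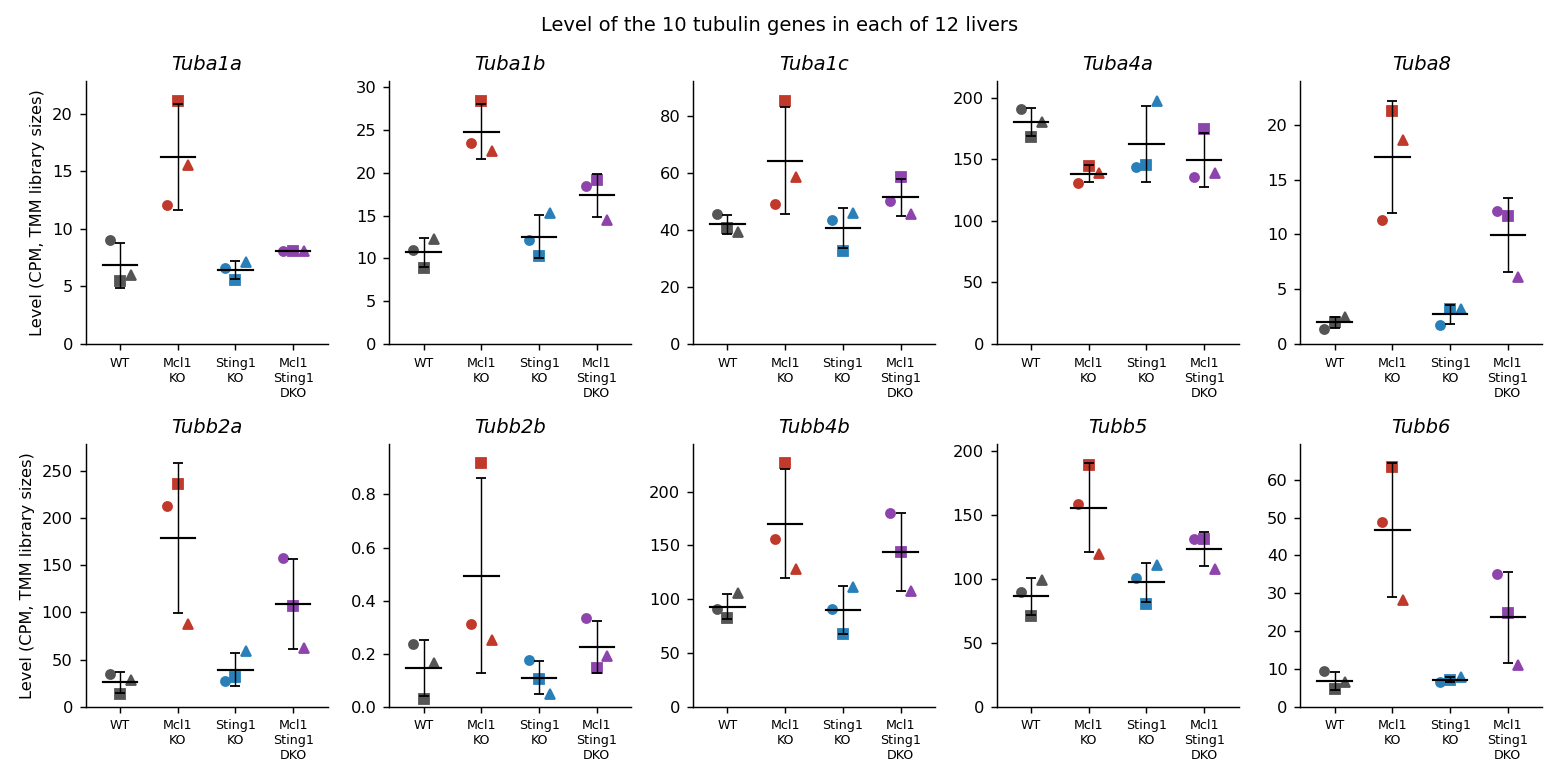
Level of each tubulin gene in each liver, in CPM on a linear axis from 0. Circles, squares and triangles mark replicates 1, 2 and 3, horizontal bars the mean and vertical bars the SD; Tubb2a, Tubb6 and Tuba8 sit highest in the Mcl1 KO livers and next in the Mcl1 Sting1 DKO livers, while Tuba4a shows no such rise.

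The comparison of Mcl1 KO with WT asks what hepatocyte loss of Mcl1 does to these transcripts where Sting1 is intact. Of the 10 tubulin genes 7 rose at an adjusted p under 0.05 (edgeR quasi-likelihood test, Benjamini-Hochberg over 15070 genes), namely 3 alpha genes (Tuba1a, Tuba1b, Tuba8) and 4 beta genes (Tubb2a, Tubb4b, Tubb5, Tubb6), and none fell. Over all tested genes, 10.8% were called higher, 9.43% lower and 20.2% in either direction. The median log2 fold change was 1.22 over the 10 members and -0.005 over all genes. In 9 members every Mcl1 KO liver lay above every WT liver in CPM, a separation that 16.2% of all genes showed, and Tuba4a was separated the other way. For Tubb2b it rested on 0.253 CPM (8 counts) in Mcl1 KO 3 against 0.237 CPM (9 counts) in WT 1. In TPM these 2 livers read 0.131 and 0.146, so the Tubb2b groups overlapped.

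Among the alpha genes the largest difference was that of Tuba8, an isotype with a divergent coding sequence that is best known from heart, skeletal muscle and testis. It read 1.40, 2.05 and 2.44 CPM in WT 1, 2 and 3, and 11.4, 21.3 and 18.6 CPM in Mcl1 KO 1, 2 and 3. The groups were far apart, with the lowest Mcl1 KO liver several times above the highest WT liver. Tuba8 rose by 3.09 ± 0.37 on the log2 scale (log2 fold change ± SE; 8.52-fold), with an adjusted p of 0.0011 in the edgeR test. The rise was called in each of the 12 fits that left out 1 library, and without Mcl1 KO 3, the library with skeletal muscle transcripts, it was 3.02 ± 0.40 on the log2 scale (adjusted p 0.0019, edgeR). The part of muscle transcripts in the Tuba8 values was not tested further.

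Tuba1a, the main alpha isotype of developing neurons, and Tuba1b, a ubiquitous alpha isotype, rose by similar amounts. Tuba1a read 9.08, 5.46 and 6.01 CPM in WT and 12.1, 21.2 and 15.6 CPM in Mcl1 KO, a log2 fold change of 1.24 ± 0.23 with an adjusted p of 0.0052 (edgeR). Tuba1b read 11.0, 8.93 and 12.2 CPM in WT and 23.5, 28.5 and 22.5 CPM in Mcl1 KO, a log2 fold change of 1.21 ± 0.18 with an adjusted p of 0.0024 (edgeR). Neither gene overlapped between the groups, although for Tuba1a the gap between WT 1 and Mcl1 KO 1 was small. Gm49450, the readthrough gene that shares their exons, moved in the same direction, with a log2 fold change of 1.39 and an adjusted p of 0.0013 in the edgeR test.

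The other 2 alpha genes did not pass. Tuba1c, the third member of the chromosome 15 group, read 45.8, 40.9 and 39.4 CPM in WT and 49.0, 85.5 and 58.8 CPM in Mcl1 KO, with a log2 fold change of 0.62 ± 0.20 and an adjusted p of 0.051 (edgeR). Without Mcl1 KO 1, its lowest Mcl1 KO liver, the adjusted p was 0.011 (edgeR), in a fit that called 5232 of 15357 genes. This was the 1 call of Tuba1c among the 12 fits that left out 1 library. Tuba4a, the alpha isotype with the highest level in WT liver, is encoded without a C-terminal tyrosine. It read 191, 168 and 180 CPM in WT and 131, 145 and 139 CPM in Mcl1 KO. All 3 Mcl1 KO livers were below all 3 WT livers, and the log2 fold change was -0.38 ± 0.16 with an adjusted p of 0.11 (edgeR).

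Among the beta genes Tubb2a had the largest difference. It encodes an isotype enriched in neurons. Tubb2a read 35.2, 13.6 and 28.8 CPM in WT and 212.8, 236.1 and 88.2 CPM in Mcl1 KO. Each Mcl1 KO liver was above each WT liver, and Mcl1 KO 3 was well below the other 2. Tubb2a rose by 2.79 ± 0.49 on the log2 scale, or 6.91-fold, with an adjusted p of 0.0046 (edgeR). Its antisense neighbour Bphl shares 80.1% of the 100-base windows of the canonical Tubb2a transcript. Bphl went the other way without passing the test (log2 fold change -0.22 ± 0.19, adjusted p 0.42, edgeR).

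Tubb6, a divergent beta isotype known for its induction in regenerating muscle, followed the same order of livers as Tubb2a. It read 9.37, 4.69 and 6.54 CPM in WT and 48.7, 63.3 and 28.2 CPM in Mcl1 KO. Mcl1 KO 2 was again highest and Mcl1 KO 3 lowest, and even the latter was far above WT. The log2 fold change was 2.76 ± 0.41, or 6.76-fold, with an adjusted p of 0.0022 (edgeR). Afg3l2, antisense to Tubb6, fell by 0.41 on the log2 scale (adjusted p 0.036, edgeR), so the 2 overlapping genes moved in opposite directions.

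Tubb5 and Tubb4b, the main beta isotypes of most tissues, rose less. Tubb5 read 89.5, 70.9 and 98.9 CPM in WT and 159, 189 and 119.7 CPM in Mcl1 KO, with a log2 fold change of 0.85 ± 0.20 and an adjusted p of 0.014 (edgeR). Tubb4b read 91.2, 82.5 and 105.4 CPM in WT and 156, 226 and 128 CPM in Mcl1 KO, with a log2 fold change of 0.87 ± 0.26 and an adjusted p of 0.033 (edgeR). Both were separated between the groups but close to the threshold. The call of Tubb5 was lost without WT 2 (adjusted p 0.064) or Mcl1 KO 2 (adjusted p 0.058), and that of Tubb4b without WT 1, WT 2, WT 3 or Mcl1 KO 2 (adjusted p 0.063 to 0.15), all in edgeR. Flot1, antisense to Tubb5, also rose, with a log2 fold change of 0.65 and an adjusted p of 0.025 in the edgeR test. Tubb2b, the near-identical neighbour of Tubb2a, stayed at 8 to 30 counts per Mcl1 KO library, with a log2 fold change of 1.44 ± 0.70 and an adjusted p of 0.094 (edgeR).

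**Figure D2:**
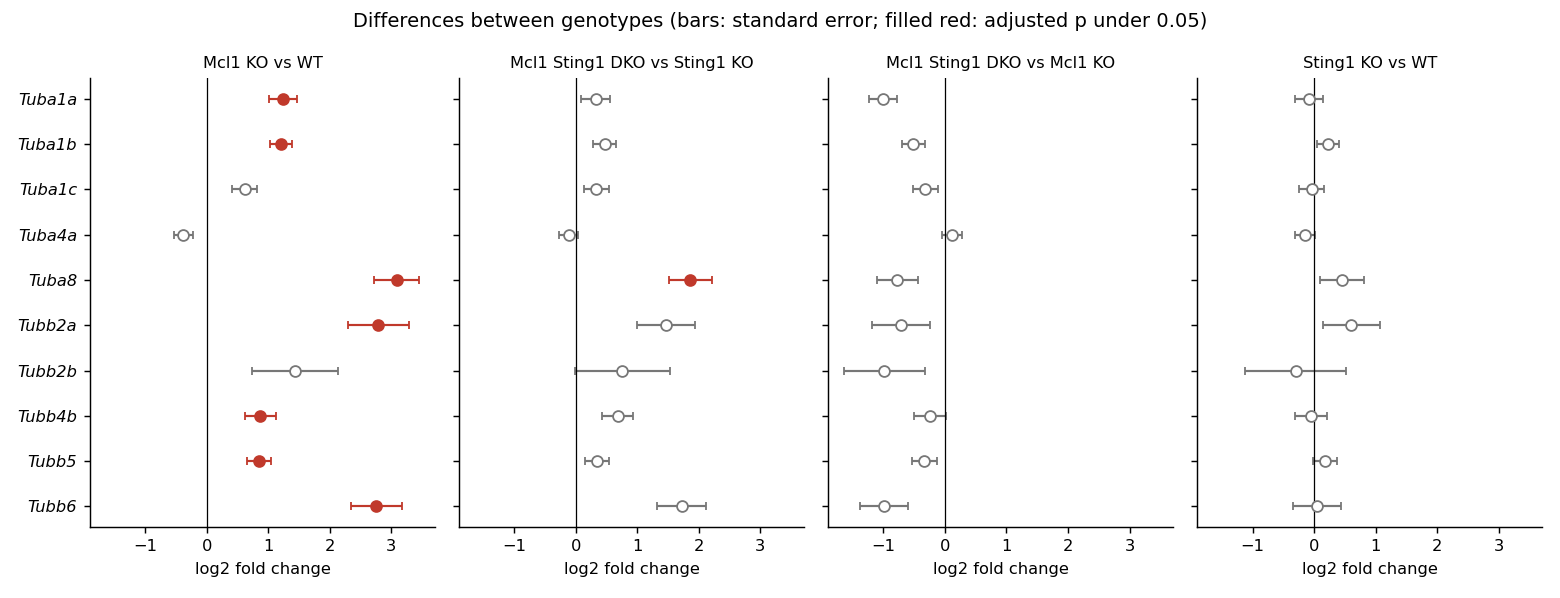
Log2 fold change of each tubulin gene in 4 comparisons, with the standard error as bars and calls at an adjusted p under 0.05 as filled red points. The filled points number 7 in Mcl1 KO against WT and 1, Tuba8, in Mcl1 Sting1 DKO against Sting1 KO.

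Library composition moved with some of these values, and its part in them was not tested. With Y-linked expression as a covariate the same count of 7 members was called, among 1531 of 15070 genes, against 3050 genes without a covariate. The log2 fold changes were 3.48 for Tuba8, 2.84 for Tubb2a and 2.83 for Tubb6. Within the 9 libraries that lack Y-linked expression, which hold only WT 1 from the control group, the log2 fold changes were 3.55 for Tuba8, 2.34 for Tubb2a, 2.30 for Tubb6 and 1.16 for Tuba1b. That fit cannot decide whether a member passes, since 1 WT liver shows no spread between controls. Fitting the percentage of short structured transcripts as a covariate left 4 members called, among 417 of 15070 genes. Tuba8 (log2 fold change 2.32), Tubb2a (2.65), Tubb6 (2.60) and Tuba1b (0.96) remained past the threshold, whereas Tuba1a had an adjusted p of 0.15, Tubb5 of 0.17 and Tubb4b of 0.40 in that edgeR fit.

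The unequal differences changed the mixture of isotypes. Tubb2a made up 17.0, 8.42 and 13.0% of all beta-tubulin TPM in the 3 WT livers and 40.0, 35.5 and 26.3% in the 3 Mcl1 KO livers. Tubb4b went from 49.5 to 57.4% in WT to 33.0 to 43.1% in Mcl1 KO, while its own level rose. On the alpha side Tuba4a made up 57.0 to 59.0% of the alpha TPM in WT and 30.5 to 39.7% in Mcl1 KO, and Tuba8 went from 0.815 to 1.56% to 6.73 to 9.53%. In none of these shares did the groups overlap.

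Summed over the 8 annotated genes of each family, beta-tubulin TPM was 301 ± 52.4 in WT and 753 ± 261 in Mcl1 KO (SD, n = 3), and alpha-tubulin TPM was 204.5 ± 25.0 and 247 ± 22.2. Beta TPM per alpha TPM was 1.44, 1.30 and 1.69 in WT and 3.75, 3.25 and 2.04 in Mcl1 KO. For the ratio, the beta sum and the 4 shares above, the 2-sided exact permutation test gave p = 0.1, the smallest that 3 livers against 3 allow, and 0.127 after Benjamini-Hochberg adjustment over the 14 tests of this kind. For the alpha sum, whose groups overlapped, it gave 0.2.

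**Figure D3:**
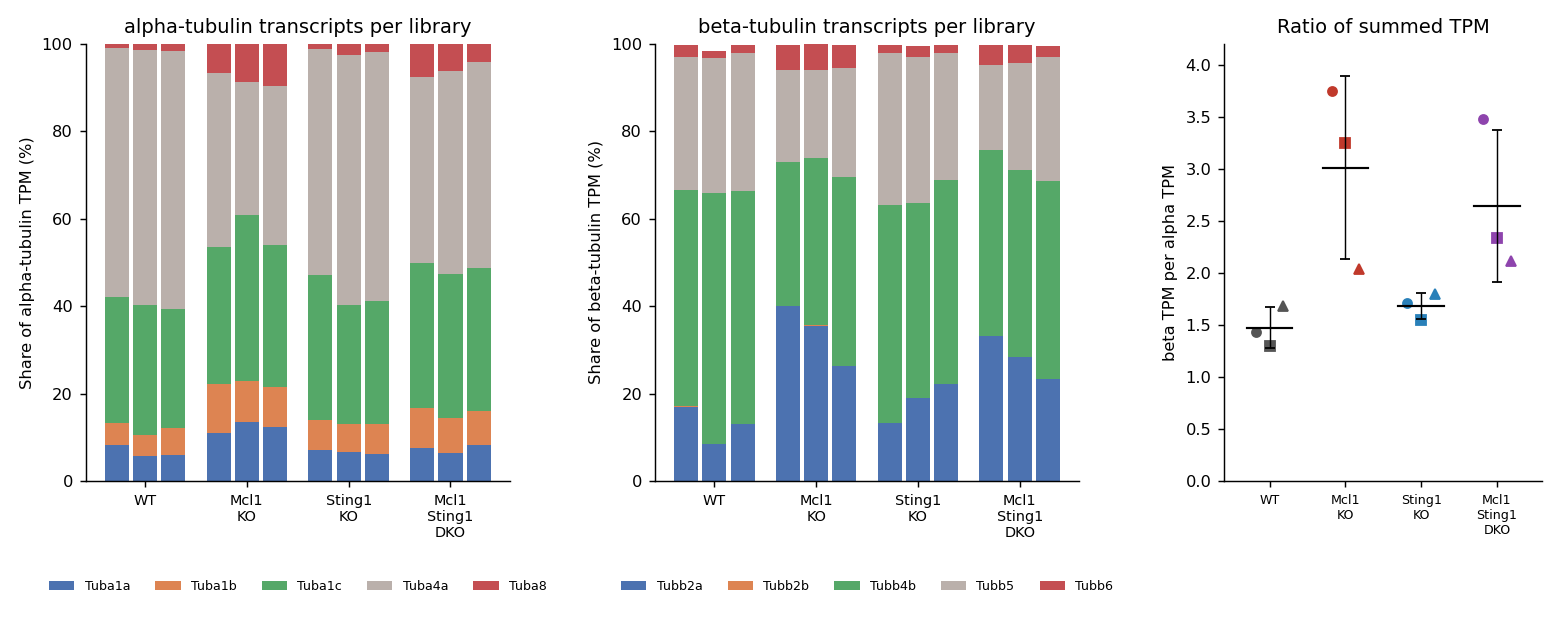
Share of each isotype in the summed alpha-tubulin and beta-tubulin TPM of each library (stacked bars in percent, libraries 1 to 3 from left to right in each genotype; the small gap to 100% in the beta panel is other beta genes) and the ratio of the sums (points per liver, mean and SD). The Tubb2a share is 8.42 to 17.0% in WT and 26.3 to 40.0% in Mcl1 KO, and the ratio is 1.30 to 1.69 and 2.04 to 3.75.

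The promoters of Tubb2a and Tuba8 are shown because these genes had the largest differences on each side. The RefSeq promoter table on GRCm38.p6, a build other than that of the counts, held 8 of the 10 members. The 250 bases before the start site are given on the gene's own strand, and capitals mark matches on either strand to any of 6 motifs, namely the CCAAT box, the TATA box (the letters TATAAA), the GC box (the letters GGGCGG), the TEAD letters GGAATG, the AP-1 letters TGANTCA and the CArG box.
Tubb2a, chr13:34078009-34078258, minus strand: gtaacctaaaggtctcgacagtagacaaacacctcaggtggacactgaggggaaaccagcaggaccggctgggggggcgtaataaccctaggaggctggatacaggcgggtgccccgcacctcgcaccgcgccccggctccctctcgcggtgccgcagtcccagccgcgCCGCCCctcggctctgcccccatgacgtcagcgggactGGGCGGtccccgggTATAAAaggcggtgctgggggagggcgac
Tuba8, chr6:121210484-121210733, plus strand: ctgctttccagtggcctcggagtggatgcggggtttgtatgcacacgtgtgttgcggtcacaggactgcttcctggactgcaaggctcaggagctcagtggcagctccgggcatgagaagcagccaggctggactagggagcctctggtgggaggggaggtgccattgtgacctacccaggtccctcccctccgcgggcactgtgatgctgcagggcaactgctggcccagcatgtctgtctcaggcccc
Tubb2a held 2 GC boxes and 1 TATA box, and Tuba8 held neither. Over the windows of 300 bases in the table, 35.7% of 32851 promoters held a GC box, 13.6% a TATA box, 37.4% a CCAAT box, 14.7% the TEAD letters, 7.81% the AP-1 letters and 1.63% a CArG box. Among the members in the table, GC boxes were found in Tuba1a, Tuba1b, Tuba4a, Tubb2a, Tubb4b and Tubb5, and CCAAT boxes in Tuba1a, Tuba1c, Tubb4b and Tubb5, with 5 matches in Tubb4b. No AP-1 letters and no CArG box were found in any of the 8 windows. A match is a string of letters and not a binding site.

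The comparison of Mcl1 Sting1 DKO with Sting1 KO addresses the same Mcl1 deletion in livers labelled as lacking Sting1. Tuba8 was the 1 tubulin gene called, among 0.677% of all genes called higher and 0.803% called in either direction. Of the 10 members 9 had a positive log2 fold change, with a median of 0.57 against -0.009 over all genes. For 4 members (Tuba1a, Tuba8, Tubb2a, Tubb6) the groups did not overlap in CPM and Mcl1 Sting1 DKO was higher, as for 11.5% of all genes. In TPM these members were separated too, and so were Tuba1b, Tuba1c, Tubb4b and Tubb5. The share of all genes separated in TPM was not determined.

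Tuba8 read 1.69, 3.24 and 3.18 CPM in Sting1 KO and 12.2, 11.6 and 6.10 CPM in Mcl1 Sting1 DKO. Its log2 fold change was 1.86 ± 0.35, or 3.62-fold, with an adjusted p of 0.037 (edgeR). When 1 library was left out the log2 fold change ran from 1.62 to 2.14, but the call held in only 4 of 12 such edgeR fits. It was lost without WT 2, WT 3, Mcl1 KO 2, any of the 3 Sting1 KO livers, Mcl1 Sting1 DKO 1 or Mcl1 Sting1 DKO 2, with adjusted p from 0.052 to 0.16. With Y-linked expression as a covariate the log2 fold change was 1.66 and the adjusted p 0.065, and within the 9 libraries without it they were 1.69 and 0.24 (edgeR).

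Tubb6 and Tubb2a showed the next largest values without passing. Tubb6 read 6.52, 6.95 and 7.82 CPM in Sting1 KO and 35.0, 24.8 and 11.0 CPM in Mcl1 Sting1 DKO, with a log2 fold change of 1.72 ± 0.40 and an adjusted p of 0.078 (edgeR). The lowest Mcl1 Sting1 DKO liver was replicate 3, and without it the adjusted p was 0.0099 (edgeR). That fit called 249 of 15415 genes. Tubb2a read 26.9, 32.0 and 59.3 CPM in Sting1 KO and 158, 106.8 and 62.1 CPM in Mcl1 Sting1 DKO, so that the groups only just failed to meet. Its log2 fold change was 1.47 ± 0.47 with an adjusted p of 0.22 (edgeR). DESeq2 called both genes, with adjusted p of 0.00063 for Tubb6 and 0.028 for Tubb2a.

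The remaining members had log2 fold changes between -0.12 (Tuba4a) and 0.76 (Tubb2b), with adjusted p of 0.31 or more. Tubb4b read 91.0, 67.2 and 111.2 CPM in Sting1 KO and 180, 144 and 107.6 CPM in Mcl1 Sting1 DKO, which overlapped through Mcl1 Sting1 DKO 3. In TPM the Tubb4b groups only just separated, at 110.9 to 181.1 in Sting1 KO and 186.0 to 328.8 in Mcl1 Sting1 DKO. Tuba1a was between 8.05 and 8.07 CPM in all 3 Mcl1 Sting1 DKO livers against 5.57 to 7.17 CPM in Sting1 KO, a separated but small difference of 0.32 ± 0.23 (adjusted p 0.68, edgeR). Tubb2a took 33.2, 28.3 and 23.2% of beta-tubulin TPM in Mcl1 Sting1 DKO and 13.2, 18.9 and 22.1% in Sting1 KO, without overlap (exact permutation p = 0.1, adjusted 0.127).

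Whether the Mcl1 effect differs with the Sting1 label was tested by the interaction, which called none of the 10 members and 0% of all genes, with 2165 of 15070 genes at an unadjusted p under 0.05 in edgeR and 170 called by DESeq2. In 9 members the interaction was below 0, and the median interaction on the log2 scale was -0.71, against -0.009 over all genes. The values with an unadjusted p under 0.05 were those of Tuba1a (-0.92 ± 0.32, adjusted p 0.29), Tuba1b (-0.74 ± 0.26, adjusted p 0.29) and Tuba8 (-1.23 ± 0.49, adjusted p 0.31) in edgeR. For Tubb2a it was -1.32 ± 0.66 (adjusted p 0.37) and for Tubb6 -1.03 ± 0.55 (adjusted p 0.40). The calls in 1 background and not in the other are thus not shown to differ.

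Setting Mcl1 Sting1 DKO against Mcl1 KO compares livers that differ in the Sting1 label and share the Mcl1 deletion. No member was called, nor was any gene (0%), although 3098 genes had an unadjusted p under 0.05 in edgeR and DESeq2 called 663. Of the 10 log2 fold changes 9 were negative, with a median of -0.61 against -0.002 over all genes. This comparison shares its Mcl1 KO livers with that against WT. Tuba1a and Tuba1b were lower in every Mcl1 Sting1 DKO liver than in every Mcl1 KO liver, as were 9.28% of all genes.

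Tuba1a had the clearest value, with a log2 fold change of -1.01 ± 0.23 and an adjusted p of 0.13 (edgeR). Without Mcl1 KO 1, its lowest Mcl1 KO liver in CPM, edgeR called it, in a fit that called 3108 of 15357 genes. With all livers DESeq2 called it, among 663 of 14390 genes. Tuba1b had -0.51 ± 0.18 (adjusted p 0.17) and Tubb6 -0.99 ± 0.39 (adjusted p 0.19, edgeR). Tubb2a read 88.2 to 236.1 CPM in Mcl1 KO and 62.1 to 158 CPM in Mcl1 Sting1 DKO, a wide overlap, with -0.72 ± 0.46 (adjusted p 0.39, edgeR). Tubb4b and Tuba4a, the beta and the alpha isotype with the highest mean TPM in these livers, had -0.24 ± 0.25 and 0.11 ± 0.16.

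Between Sting1 KO and WT no member was called and none was separated. Over all genes 0% were called in edgeR, with 821 at an unadjusted p under 0.05 and 51 called by DESeq2. The log2 fold changes of the members ran from -0.30 (Tubb2b) to 0.61 (Tubb2a), with a median of 0.003, and the next largest was that of Tuba8 at 0.46 ± 0.36. For Tubb2a, Sting1 KO 3 at 59.3 CPM lay above the WT maximum of 35.2 CPM, and the log2 fold change was 0.19 without it and 0.30 without WT 2.

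Other genes of tubulin and microtubule biology were compared between Mcl1 KO and WT by list. The counts below stand beside 10.8% of all tested genes called higher and 9.43% called lower in this comparison. The other tubulin genes that could be tested were Tubb1 of platelets, Tubd1 and Tube1 of the centriole and Tubg1, the gamma-tubulin that nucleates microtubules. None of these 4 was called. Tubb1 had a log2 fold change of -1.52 ± 0.78 (adjusted p 0.12) and Tubg1 of -0.48 ± 0.18 (adjusted p 0.083) in edgeR. All listed tubulin folding and autoregulation genes (chaperonin, prefoldin and cofactor subunits) were testable, and of these 23, 2 rose and 1 fell, with a median of 0.21. Pfdn1 and Vbp1, subunits of prefoldin that hand nascent tubulin to the chaperonin, had log2 fold changes of 0.58 ± 0.15 (adjusted p 0.023) and 0.67 ± 0.18 (adjusted p 0.024), and Tbcel, a cofactor E-like protein that destabilises tubulin, had -0.77 ± 0.15 (adjusted p 0.0071), all in edgeR.

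The summed levels of the folding list (1391 to 1422 CPM in WT, 1196 to 1668 CPM in Mcl1 KO) and of the nucleation list (199 to 217 CPM and 189 to 244.6 CPM) overlapped between the groups. Of 20 nucleation genes, 2 rose and 1 fell, with a median of -0.06, where 10.8% of all genes were called higher and 9.43% lower. Haus8, an augmin subunit, had 1.49 ± 0.21 (adjusted p 0.0017), Tpx2, a spindle assembly factor, 3.06 ± 0.56 (adjusted p 0.0048), and Tubgcp4, a subunit of the gamma-tubulin ring complex, -0.48 ± 0.15 (adjusted p 0.045), all in edgeR. Of 24 tested microtubule-associated and plus-end genes (28 listed), 5 rose and 2 fell, with a median of 4.4e-05. Their summed level was 621.1 to 625.2 CPM in WT and lower in each Mcl1 KO liver, at 617, 443.1 and 444.9 CPM. Mtus1 alone contributed a mean of 250 CPM in WT and 136 CPM in Mcl1 KO to this sum. Stmn1, which sequesters heterodimers, rose by 3.08 ± 0.42 (adjusted p 0.0015), whereas Clip1, a plus-end protein, had -0.62 ± 0.14 (adjusted p 0.011) and Mtus1 -0.88 ± 0.22 (adjusted p 0.019), in edgeR.

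Of 24 tested tubulin modification and severing genes (31 listed), 2 rose and 1 fell, with a median of -0.25. Over all genes 10.8% were called higher and 9.43% lower. The summed level of the modification and severing list was 245.8 to 247.4 CPM in WT and 218 to 227.5 CPM in Mcl1 KO, without overlap. Fignl1, a relative of the severing enzyme fidgetin that also acts in DNA repair, had 3.31 ± 0.45 (adjusted p 0.0013), Ttll3, a glycylase, 0.70 ± 0.16 (adjusted p 0.013), and Hdac6, the cytoplasmic tubulin deacetylase, -0.59 ± 0.14 (adjusted p 0.016), in edgeR. Of 26 tested motor genes (27 listed), 2 rose and 3 fell, with a median of -0.07, and the summed levels overlapped (1182 to 1238 CPM in WT, 795.8 to 1199 CPM in Mcl1 KO). Among them the dynein light chains went apart, with Dynll1 at 0.99 ± 0.26 (adjusted p 0.022) and Dynll2 at -0.61 ± 0.17 (adjusted p 0.026), and the kinesin Kif13a had -0.84 ± 0.23 (adjusted p 0.026), in edgeR. In Mcl1 Sting1 DKO against Sting1 KO, where 0.677% of all genes were called higher, the calls within these lists were Tpx2 (2.78), Stmn1 (2.08) and Fignl1 (2.45), and each was positive.

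**Figure D4:**
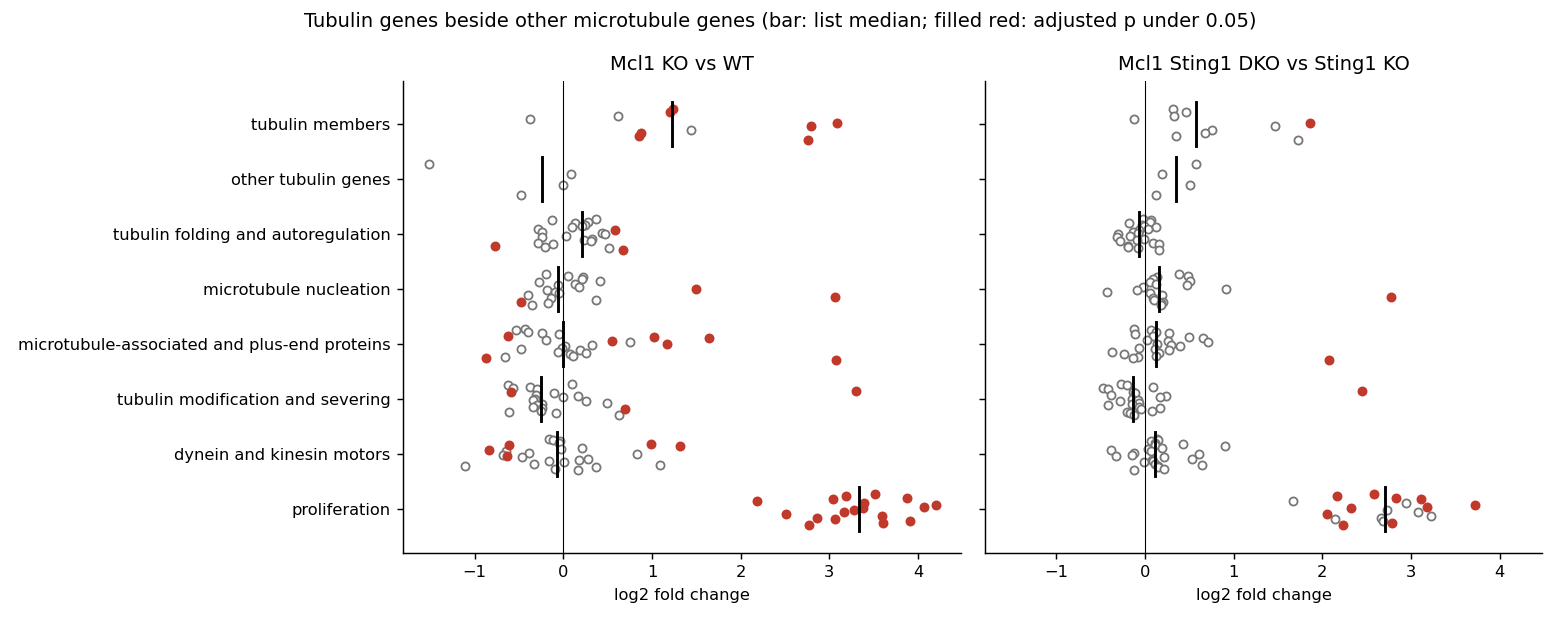
Log2 fold change of every tested gene of 8 lists in the 2 comparisons of Mcl1 deletion, with the list median as a black bar and calls at an adjusted p under 0.05 in red. The 10 tubulin genes have medians of 1.22 and 0.57 and the proliferation genes of 3.33 and 2.71, while the lists of folding, nucleation, microtubule-associated, modifying and motor genes have medians between -0.25 and 0.21.

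Markers of dividing cells and of other cell types moved in the same comparison, and their part in the tubulin values was not tested. All 18 proliferation genes rose in Mcl1 KO against WT, where 10.8% of all genes were called higher, with a median log2 fold change of 3.33. Their summed level was 19.3 to 21.6 CPM in WT, 94.0 to 298 CPM in Mcl1 KO, 24.4 to 41.3 CPM in Sting1 KO and 86.1 to 346 CPM in Mcl1 Sting1 DKO. In Mcl1 Sting1 DKO against Sting1 KO 10 of the 18 rose, where 0.677% of all genes were called higher. Against Mcl1 KO, where edgeR called 0% of all genes, none of the 18 was called, with a median of -0.07. Mcl1 KO 3 and Mcl1 Sting1 DKO 3, the lowest of their groups for Tubb2a, Tubb6, Tubb4b, Tubb5 and Tuba1b, were also the lowest for the proliferation sum. Within Mcl1 KO, other members did not share this order in CPM. Tuba8 (11.4 CPM), Tuba1a (12.1 CPM), Tuba1c (49.0 CPM) and Tuba4a (131 CPM) were lowest in Mcl1 KO 1 within their group. That liver had the highest proliferation sum of the Mcl1 KO livers, at 298 CPM. In TPM, Tuba8 was again lowest in Mcl1 KO 1 (16.8 TPM), whereas Tuba1a, Tuba1c and Tuba4a were lowest in Mcl1 KO 3. Tuba8 and Tuba1c were also lowest in Mcl1 Sting1 DKO 3 within that group, at 6.10 and 45.8 CPM.

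The marker counts that follow are for Mcl1 KO against WT, where 10.8% of all genes were called higher and 9.43% lower. Of the 15 macrophage and Kupffer cell markers 11 rose, and their sum went from 556 to 877 CPM in WT to 1040 to 1169 CPM in Mcl1 KO. Of the 14 stellate cell and myofibroblast markers 8 rose, and their sum went from 486 to 790.2 CPM to 1056 to 1185 CPM. Neutrophil markers rose in 5 of 5 tested genes, lymphocyte markers in 4 of 13, ductular markers in 1 of 10 and platelet markers in 1 of 3, and endothelial markers in none of 10. Of 4 tested neuron markers none rose and 1 fell, and Snap25 had no count in any library. Of 12 hepatocyte markers 2 fell, and the summed level was 110500 to 163400 CPM in WT and 109700 to 148600 CPM in Mcl1 KO.

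**Figure D5:**
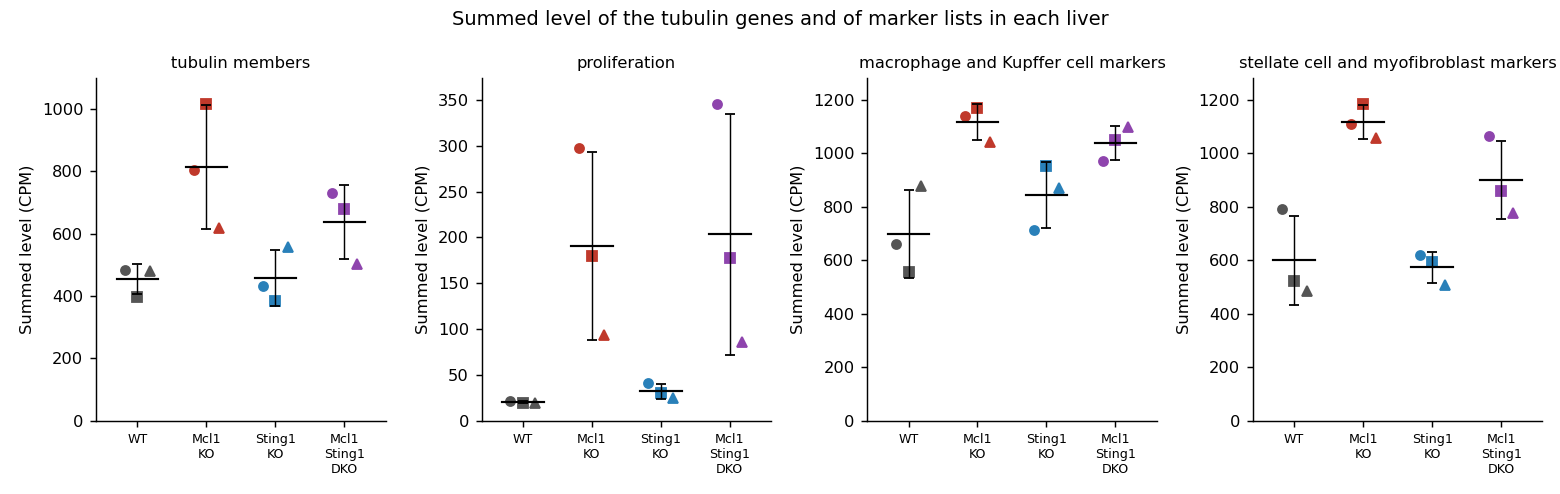
Summed level in CPM of the 10 tubulin genes and of 3 marker lists in each liver (symbols as replicates 1 to 3, bars for the mean and SD). The tubulin sum is 397.6 to 484 CPM in WT and 620 to 1017 CPM in Mcl1 KO, and the proliferation sum is 19.3 to 21.6 CPM and 94.0 to 298 CPM.

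The genes whose pattern over the 12 livers was most like a member were found by the root-mean-square difference of centred log2 CPM among 12559 genes. For Tuba4a, the alpha gene with the highest level, they were Zfp68 (0.11), Tom1 (0.12) and Tmem241 (0.12), against a root-mean-square deviation of 0.20 for Tuba4a itself. For Tubb4b they were Fabp7 (0.17), Tubb5 (0.18) and Morf4l2 (0.20), against 0.48, so that the gene ranked next to nearest to the main beta isotype was another beta isotype. For Tuba8 they were Gins2 (0.38), a DNA replication factor, Clec7a (0.39), a receptor of myeloid cells, and H3c3 (0.43), a replication-dependent histone gene, against 1.33.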

How the data were processed

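Total RNA from 12 mouse livers was sequenced by the study on an Illumina platform. The authors deposited raw read counts per Ensembl gene, 1 file per liver; the submitters' processing notes name STAR, featureCounts and GRCm39, and the version, annotation release, strand setting and treatment of shared reads are not given in the sources used here. Groups follow the genotype labels, 3 livers each. The labels name the RNeasy Plus Mini kit and the study's methods the RNeasy Micro kit. The members and gene lists were chosen with earlier results of these data known.

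Counts were fitted for all 12 libraries together with edgeR 4.0.16 in R 4.3.3 (TMM scaling, filterByExpr by genotype, glmQLFit and glmQLFTest, prior count 2, Benjamini-Hochberg threshold 0.05 over 15070 genes), with 5 contrasts. The standard error is the size of the log2 fold change before shrinkage by the prior count divided by the square root of F. The test was tried on simulated data for Mcl1 KO against WT: of 198 changed genes of 4-fold difference among 14807, 169 were recovered, with 10 false calls; DESeq2 1.42.0 recovered 177 of 200, with 32 false calls. TPM used the union of exons in GENCODE vM39; 1018 of 40551 identifiers were not in that annotation and carried at most 0.101% of counts.

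The text names all 10 members, Mcl1 and Sting1, overlapping genes, up to 3 called genes of lowest p per microtubule list, and the 3 genes most like 3 members. Alternatives were median-of-ratios scaling, DESeq2, no filter, a replicate block, each library left out, covariates for Y-linked expression and small structured RNAs, only the libraries compared, and, chosen after seeing the data, only the 9 libraries without Y-linked expression. No 2 livers of a genotype agreed within sampling noise. Intervals of single counts were not used, since the livers are the replicates.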

Additional observations from a re-analysis of the deposited data

How the results depend on the processing

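The tubulin members called in Mcl1 KO against WT numbered 7, and 8 with median-of-ratios scaling or DESeq2, 7 without a filter or with Y-linked expression as a covariate, 6 with a replicate block, 5 with only the 6 libraries compared, 4 with small structured RNAs as a covariate, 0 within the 9 libraries without Y-linked expression (1 WT liver), and 5 to 8 when 1 library was left out. The genes called, 3050, became 1531, 417, 1178 and 4 with the Y-linked covariate, the small structured RNA covariate, only the 6 libraries and only the 9 libraries, and 1233 to 5232 with 1 library left out. In Mcl1 Sting1 DKO against Sting1 KO 1 member was called, 3 in DESeq2, 2 without a filter, 0 with the Y-linked covariate, only the 6 or only the 9 libraries, and 0 to 2 with 1 library left out, and the 121 genes became 461 in DESeq2, 45 with the Y-linked covariate, 17 with the 6 libraries, 0 with the 9, and 1 to 249. In Mcl1 Sting1 DKO against Mcl1 KO DESeq2 called 1 member and 663 genes and the Y-linked covariate 1 gene, and leaving out 1 library gave 0 to 1 members and 0 to 3108 genes, the highest count without Mcl1 KO 1. In Sting1 KO against WT no alternative called a member, and genes called were 51 in DESeq2, 2 with the 6 libraries, 1 with the 9, and 0 to 22. The interaction called 170 genes in DESeq2, and 0 to 1 members and 0 to 1574 genes with 1 library left out. The cause was not tested.

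Signs turned in values far from the threshold. In Sting1 KO against WT they were Tuba8 (-0.069) and Tubb6 (-0.066) with small structured RNAs as a covariate, Tubb4b with the Y-linked covariate (0.13) and Tubb6 within the 9 libraries (-0.39). With 1 library left out, Tuba1a ran from -0.23 to 0.17, Tuba1c from -0.14 to 0.096, Tubb2b from -0.67 to 0.11, Tubb4b from -0.23 to 0.12 and Tubb6 from -0.16 to 0.34. In the interaction Tuba1c (0.24), Tubb2b (0.17) and Tubb4b (0.24) turned with small structured RNAs as a covariate, and with 1 library left out Tubb2b ran from -1.09 to 0.00071 and Tubb4b from -0.38 to 0.066, both turning without Mcl1 KO 2. Leaving out 1 library, Tuba4a ran from -0.24 to 0.049 in Mcl1 Sting1 DKO against Sting1 KO and from -0.0096 to 0.18 against Mcl1 KO, where Tubb4b ran from -0.43 to 0.016.

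Replicate numbers share only a number: correlations of deviations of same-numbered livers ran from -0.0916 to 0.251 over 4 comparisons. The replicate block moved the genes called in Mcl1 KO against WT to 2591 and in Mcl1 Sting1 DKO against Sting1 KO to 129. Depth limits Tubb2b most, which had 1 to 30 counts per library and a standard error of 0.70 on the log2 scale in Mcl1 KO against WT.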
